A study of Homo sapiens with 23 samples.

Results

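OV-90 is an established human ovarian cancer cell line, and the libraries described here are the 5 of the 23 in the series whose table column carries that name. 3 of them came from OV-90 cells selected for resistance to prexasertib, marked by an added R in the column name, and 2 came from parental OV-90 cells, for which no drug selection is given. Resistance was obtained by raising the drug concentration over a long period in culture. The labels name no genotype and no transgene, and do not say whether the resistant cells are a clone, how much drug they met, or whether drug was present when RNA was taken, so selection, time in culture and any drug still present cannot be told apart. Messenger RNA was sequenced with a stranded kit. The study did the same with Kuramochi, OVSAHO and EFO-21, each with 3 parental and 3 resistant libraries, and asked which expression changes go with acquired resistance. The columns carry library numbers, 2 and 3 for the parental and 13, 14 and 15 for the resistant OV-90 cells, and these numbers are used below as names only.

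Prexasertib inhibits CHK1, the kinase that ATR activates when replication forks stall. CHK1 restrains the CDC25 phosphatases, so that CDK2 and CDK1 stay phosphorylated by WEE1 and PKMYT1, origins do not fire in excess and cells with incompletely copied DNA do not enter mitosis. Cells that are deprived of CHK1 activity accumulate broken forks and may die in mitosis.

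The parental libraries stood apart from each other more than the libraries of any other group did. Pearson's r across genes was 0.952 between libraries 2 and 3, between 0.98 and 0.982 among the 3 resistant libraries and between 0.971 and 0.988 in the 6 groups of the other lines. 892 genes differed by more than 2 on the log2 scale between libraries 2 and 3, against 454 to 473 in pairs of resistant libraries. Library 3 was also closer to the resistant libraries (r from 0.945 to 0.949) than library 2 was (r from 0.905 to 0.915). Among the genes called higher in resistant cells, library 3 lay a median of 35.5% of the way from library 2 to the resistant mean, and among those called lower, 25.3%. Of the 5 libraries, library 2 alone held high levels of transcripts of squamous epithelium and of antibodies, with KRT6A, a stress keratin, at 8.01 against 1.49 in library 3 and IGHG1, an immunoglobulin heavy chain, at 8.98 against 0.18. Library 3 alone held high levels of several skeletal muscle transcripts, with MYH2, a fast myosin, at 8.12 against 0.95 in library 2. Of 15 muscle genes 9 exceeded the library median in library 3, and 1, TNNT1, in each other library. TNNT1 was high in all 5 libraries, at 9.57 in library 2, 9.11 in library 3 and 8.78 or more in resistant libraries. It made up most of the summed muscle level given next for the 4 libraries other than library 3. The summed log2 level of 9 squamous genes was 9.85 in library 2 and between 5.42 and 6.62 in the other 4, that of 9 immunoglobulin genes 10.97 against 5.18 to 5.66, and that of 15 muscle genes 10.97 in library 3 against 9.07 to 9.77. Of all these genes only TP63 was called, but the calls depend on the fit. In a fit of all libraries 8 squamous, 5 immunoglobulin and 3 muscle genes were called lower in resistant cells. Without library 3 in the fit of OV-90 libraries 8 squamous, 9 immunoglobulin and 1 muscle gene were called lower, and without library 2 10 muscle genes were. Such transcripts were also present in parental libraries of other lines, KRT6A and IGHG1 with means of 7.51 and 6.86 in parental OVSAHO and MYH2 at up to 8.85 in parental Kuramochi. Their part in other results was not tested.

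Levels are deposited log2 values that the authors quantile normalized, so that all 5 libraries have a median of 6.01 and a 10th percentile of 1.81. Values at or under the latter are called the bottom of the table, and a difference from a group that lies there is not a measured fold change. The table holds no read counts and the depth of the libraries is unknown. Of 14 markers of ovarian carcinoma epithelium, 6 exceeded the library median in each of the 5 libraries. EPCAM, an epithelial adhesion protein, was at 12.14 and 12.45 in the parental and from 12.32 to 12.34 in the resistant libraries, and KRT8, KRT18, KRT19, CDH1 and FOLR1 were high as well. PAX8, a Mullerian lineage factor, was near the bottom at 2.43 and 1.77 in the parental and 2.02, 2.00 and 1.82 in the resistant libraries, and WT1 and MUC16 were at or near the bottom too. The libraries are thus those of an epithelial line in which some defining markers of serous ovarian carcinoma were absent or nearly so, in parental and resistant cells alike.

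Resistant and parental OV-90 cells were first compared over all 21658 genes. In limma, 3478 genes (16.1%) were called, a call standing for a change of 2-fold or more whose adjusted p lay under 0.05, of which 2058 were higher (9.5% of all genes) and 1420 lower (6.56%) in resistant cells. All 2058 had their 3 resistant libraries above both parental libraries, and all 1420 had them below. Of all 21658 genes, called or not, 6935 had them above and 8036 below. The calls rest on the same values, so the separation of called genes adds no support to them. Because there are 2 libraries against 3, an exact two-sided permutation test of a gene cannot go under p = 0.1, and the adjusted p-values rest on limma's sharing of the spread between genes. In bulk RNA, fewer cells of a type and less RNA per cell cannot be told apart. Of the 3478 genes, 1905 were also called in the same direction without library 2 and 3126 without library 3, in fits that took their spread from all libraries left. In the fit of the OV-90 libraries alone the count was 2397 without library 2, 5975 without library 3, and 309, 425 and 356 without libraries 13, 14 and 15.

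The change in OV-90 followed the length and base composition of transcripts. Among 10201 genes expressed above the median that had a transcript in the annotation, the quintile with the shortest transcripts (up to 1250 bases) had a median log2 change of -0.50, and the quintile with the longest (from 4840 bases) a median of 0.57. The first of these held 276 genes called lower and 40 called higher, while the last held 22 and 515. By GC content, the medians went from 0.36 in the quintile with the lowest to -0.32 in the quintile with the highest. Parental libraries 2 and 3 differed from each other in the same manner, library 3 minus library 2 having a median of -0.29 in the shortest and 0.36 in the longest quintile. Across these genes Spearman's rho with length was 0.54 for the change and 0.49 for the difference between the parental libraries, and the values share library 2 and library 3. In the other lines rho for the change was 0.03 (Kuramochi), 0.31 (OVSAHO) and 0.19 (EFO-21). Whether RNA quality, library preparation or the cells set this gradient was not tested. After the part of each library that length and GC predict was subtracted, 1129 genes were called higher (5.76%) and 1252 lower (6.39%) among 19596 genes with a length, so that the share of higher calls went from 59.2% to 47.4%. Of 3162 called genes with a length, 1594 were still called in the same direction and 1568 were not called.

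**Figure D1:**
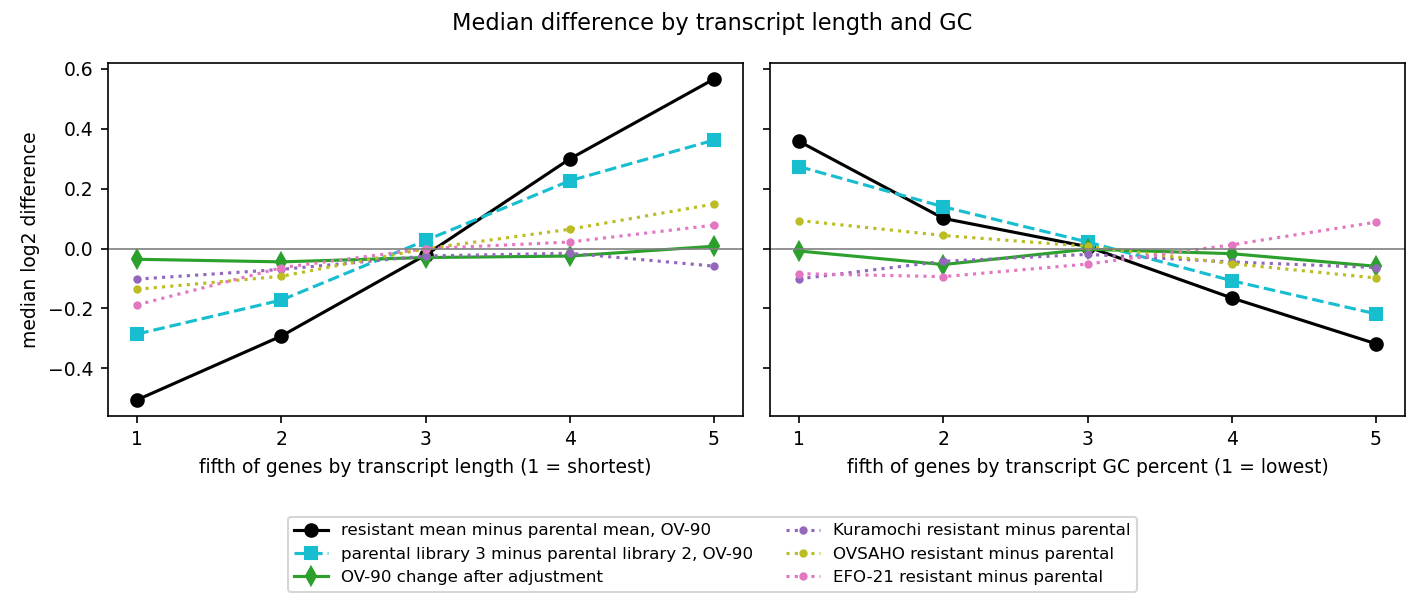
Median log2 difference (vertical axis) of expressed genes in quintiles by transcript length (left) and by GC percent (right), for the OV-90 change, for parental library 3 minus library 2, for the OV-90 change after adjustment and for the change in the other 3 lines. The OV-90 change rises from -0.50 to 0.57 with length and the difference between the parental libraries from -0.29 to 0.36. The adjusted change stays between -0.04 and 0.01 by length and between -0.06 and -0.002 by GC. The adjustment was fitted on length and GC, so a flat course follows from it.

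In what follows, a call is said to be kept where the gene was also called without library 2, without library 3 and after this adjustment. 1161 genes met all of these, 699 of them higher (3.23% of all genes) and 462 lower (2.13%), while 2317 did not. A gene with no transcript length cannot be kept. The fits that leave out a parental library are those of all libraries. In fits of the OV-90 libraries alone, PTCHD1, ESRP2, NOG and IGFBP3 lost their call without either parental library and BIK, EHF, MMP9, HOXB8 and CLDN5 without library 2.

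The largest rises and falls are given for genes whose parental libraries lay within 1 of each other and whose higher group mean exceeded the median of all gene means. The genes also had to have all resistant libraries on the same side of both parental libraries. The genes with the largest rises went from levels near or below the library median to levels above it. AMBN (Gene ID 258, chr4:71457973-71473005, GRCh37), which encodes the enamel protein ameloblastin, was at 6.63 and 5.79 in the parental and 11.60, 11.60 and 11.68 in the resistant libraries. SYT4, a synaptotagmin of secretory vesicles, went from 5.43 and 4.60 to 10.14, 9.81 and 9.95. ITM2A (Gene ID 9452, chrX:78615881-78623164), a membrane protein of differentiating cells, went from 5.96 and 6.05 to 10.65, 10.58 and 10.59. Separate groups were a condition of the choice, and the gap between them was 4 or more log2 units wide in each of these genes. Their log2 changes were 5.42 ± 0.26 (SE, adjusted p = 0.00368), 4.95 ± 0.27 (adjusted p = 0.00414) and 4.60 ± 0.07 (adjusted p = 0.000451).

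Among the 10 largest rises were also receptors and channels. F2RL2, a protease-activated receptor, rose by 3.88, ROR2, a receptor tyrosine kinase that binds WNT5A, by 3.62, and TEK, the angiopoietin receptor better known from endothelium, by 3.41. KCNA2, a voltage-gated potassium channel, rose by 3.47 and SLC4A4, a sodium bicarbonate cotransporter, by 3.44. STXBP5L, which regulates vesicle fusion, rose by 3.77 and FREM2, an extracellular matrix protein, by 3.30. All 10 calls were kept, and the adjusted p-values in limma ran from 0.000451 to 0.00806. TEK also stands in a list of 8 endothelial markers, in which CLDN5 was called higher from the bottom of the table, PECAM1 fell by 2.89, and 5, with VWF and EMCN at or near the bottom in resistant cells, were not called.

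Several of the largest falls ended at or near the bottom of the table. BHMT (Gene ID 635, chr5:78407632-78428111), which remethylates homocysteine with betaine in liver and kidney, was at 5.71 and 6.71 in parental and 0.06, 0.07 and 0.06 in resistant libraries. ACKR1 (Gene ID 2532, chr1:159174665-159176290), a decoy receptor for chemokines, went from 7.28 and 7.24 to 0.06, 2.04 and 1.67. HHIP, which binds and restrains hedgehog ligands, went from 6.29 and 5.96 to 1.501, 1.11 and 1.17. Both parental libraries lay over 4 log2 units above every resistant library in each of these genes, and because the resistant values are at or near the bottom the changes of -6.15, -6.00 and -4.87 are not measured folds.

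Falls that stayed above the bottom were measured for SLC38A5, TUSC3 and SULF2. SLC38A5, a glutamine and glycine transporter, was at 9.33 and 9.26 in parental and 5.06, 4.89 and 4.88 in resistant libraries, a change of -4.35 ± 0.11 (adjusted p = 0.00145). TUSC3, a subunit of the oligosaccharyltransferase that glycosylates proteins, went from 7.38 and 7.22 to 2.84, 2.73 and 2.89, and SULF2, which trims sulfate groups from heparan sulfate, from 7.12 and 7.13 to 2.61, 2.82 and 2.36. Parental and resistant values were separated by over 4 log2 units in all 3. STMN2, a neuronal microtubule protein, fell by 5.19, with resistant values between 2.44 and 4.48, and WSCD1 went from 7.10 and 7.07 to 2.92, 1.83 and 0.76. LOC339166, a long noncoding transcript, fell by 4.05 and has no transcript length. CES1P2 went from 6.65 and 7.05 to 0.06, 0.07 and 1.89, at or near the bottom, but it is a pseudogene that shares sequence with CES1, and the counting may have split reads between them. Of these 10 calls, 9 were kept, all but that of LOC339166.

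**Figure D2:**
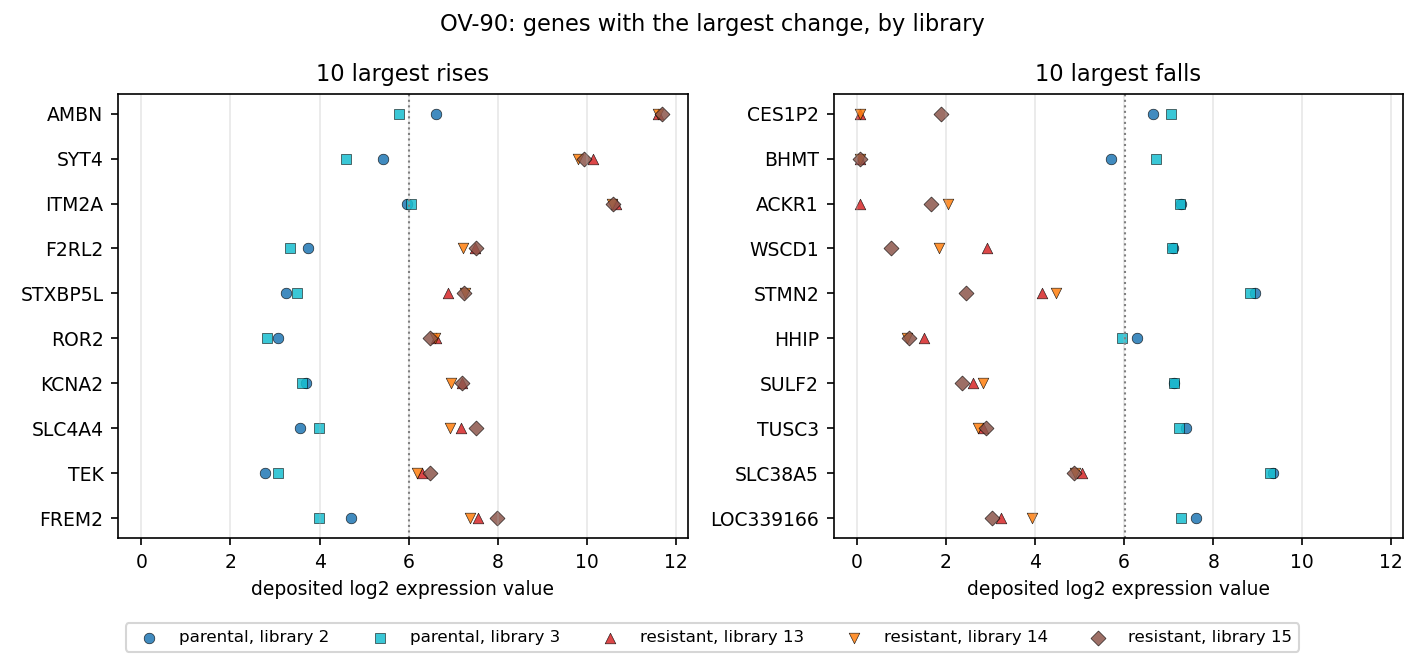
Deposited log2 expression values (horizontal axis) of the 10 genes with the largest rise (left) and the 10 with the largest fall (right) in each OV-90 library, with 1 point for each library and the library median as a dotted line. All 20 genes were chosen to have the 3 resistant libraries on the same side of both parental libraries.

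Gene lists written for this line were described next by their counts and medians, set against the 9.5% of genes called higher, the 6.56% called lower and the median change of -0.06 over all genes. The plot of calls by list shows, for example, the MAPK feedback and AP-1 list with more members called higher than the share of all genes, and the CHK1 and ATR list with fewer.

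**Figure D3:**
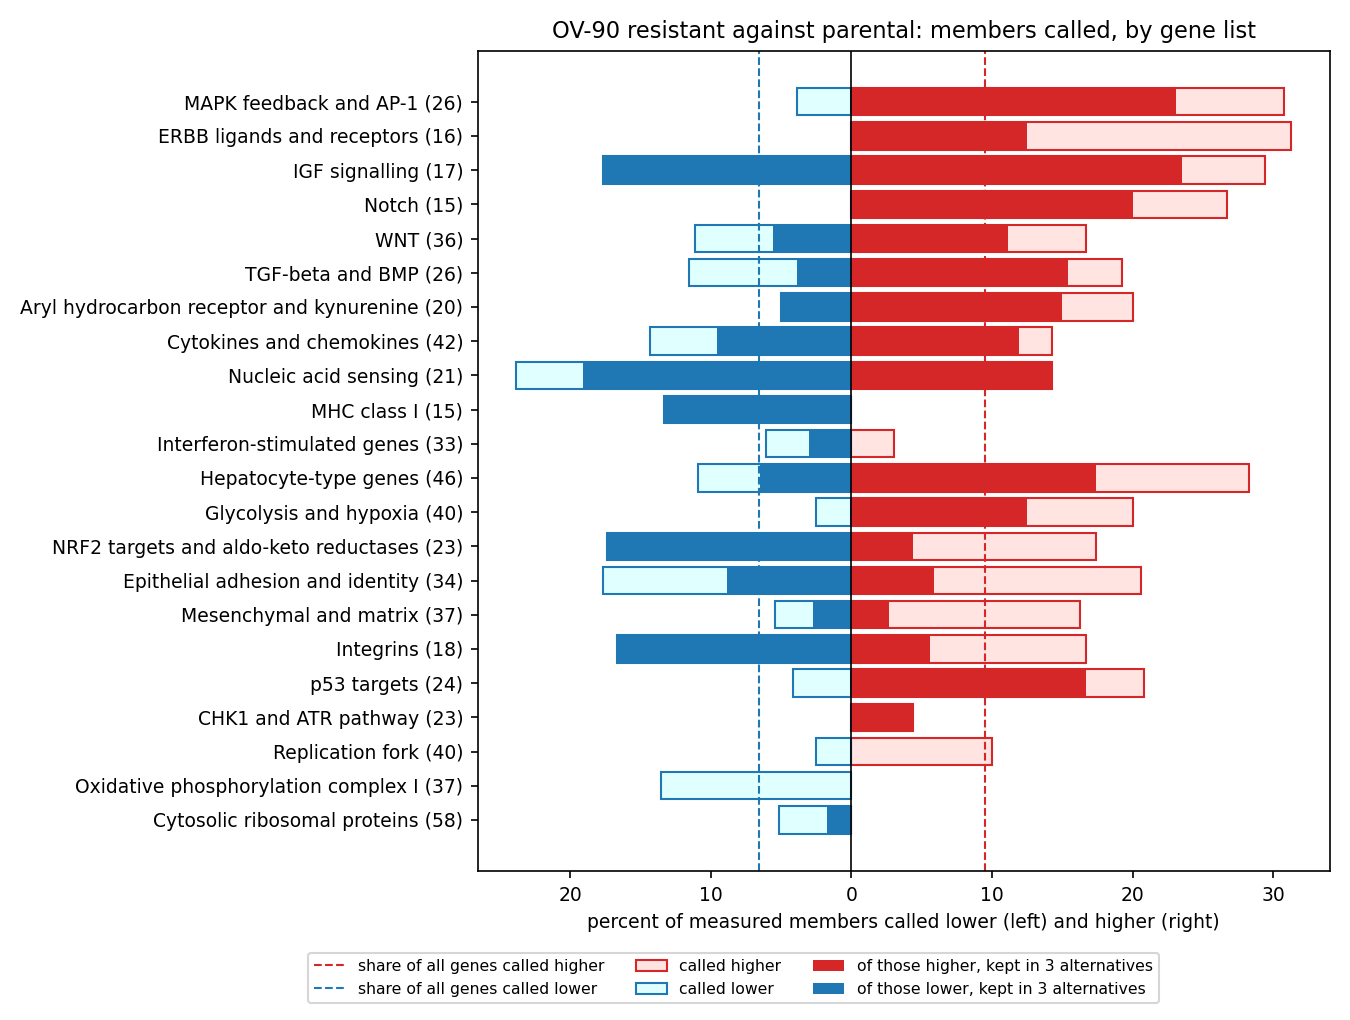
Percent of the measured members of 22 gene lists called higher (right) and lower (left) in resistant OV-90 cells, with members measured in parentheses, filled parts for calls that were kept and dashed lines for the shares of all genes. The MAPK feedback and AP-1 list has 8 of 26 called higher, the complex I list 5 of 37 called lower with none kept.

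The drug's target and its pathway were measured first. CHEK1, which encodes the kinase that prexasertib inhibits, was at 7.33 and 7.31 in the parental and 7.23, 7.20 and 7.22 in the resistant libraries, a log2 difference of -0.10 ± 0.08 (adjusted p = 0.339). CDC25A, the phosphatase that CHK1 restrains, was at 5.82 and 6.11 in parental and 5.72, 5.81 and 5.78 in resistant libraries. The resistant values lay just under the parental values in both genes. Of 23 genes of the CHK1 and ATR pathway only WEE1, the kinase that holds CDK1 and CDK2 inactive, was called, and it was called higher. It went from 6.83 and 7.23 in parental to 8.44, 8.42 and 8.54 in resistant libraries, a change of 1.43 ± 0.14 (adjusted p = 0.00946), and the call was kept. Of 40 replication fork genes, 4 were called higher and 1 lower, and none of these calls was kept. Of the MCM helicase genes, MCM4 was called higher (1.10), while MCM2 (0.52), MCM3 (0.10), MCM5 (-0.77), MCM6 (0.02) and MCM7 (0.07) were not, and without library 2 MCM4 was not called. Without library 2 none of the 40 genes was.

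Of 18 G1/S cyclins and CDK inhibitors 3 were called higher and 2 lower, and of 19 DREAM and E2F genes 3 and 1, which is 27.8% and 21.1% against 16.1% of all genes. In each list 1 call was kept. CCND1, which drives cells through G1, rose by 1.31 and CCNE2, a partner of CDK2, by 1.29, but after the adjustment for length and GC the changes were 0.94 and 0.97 and neither was called. CCNE1 (0.38), CCNA2 (-0.11) and CDK2 (0.67) did not reach a 2-fold change. E2F7, a repressor of E2F targets, rose by 1.64, and CCND2 was called lower, going from 2.75 and 2.47 to the bottom of the table at 1.34, 1.37 and 1.53, and both calls were kept. Of 25 genes of mitosis and the spindle checkpoint 3 were called higher and 1 lower, none was called without library 2, and the median change was -0.04. TOP2A, a topoisomerase, was called higher by 1.62, MKI67, a proliferation marker, by 1.43 and CENPF, a kinetochore protein, by 1.37. In these 3 genes library 3 lay over 1 log2 unit above library 2, as for MKI67 at 5.24 and 6.36 against 7.23, 6.97 and 7.48 in resistant libraries, and none of the calls was kept. CENPA, with a short transcript, was lower by 1.01 and was not kept either.

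Genes of the MAPK pathway's feedback and of AP-1 were called higher more often than lower. RAS signals through MEK and ERK to early response genes such as EGR1 and FOSB, and the dual specificity phosphatases and Sprouty proteins that ERK induces turn the signal down again. Of 26 measured members 8 were called higher and 1 lower, 6 of the rises were kept, and the median change was 0.80, or 0.51 after the adjustment. EGR1 was at 8.04 and 8.04 in parental and 9.63, 9.80 and 9.94 in resistant libraries. DUSP6, the phosphatase that acts on ERK in the cytoplasm, was at 8.52 and 8.88 in parental and 10.29, 10.26 and 10.33 in resistant libraries, and DUSP5, its nuclear relative, at 8.61 and 8.89 in parental and 10.39, 10.33 and 10.43 in resistant libraries. Each of the 3 had parental libraries within 0.4 of each other and every resistant library more than 1 log2 unit above them. The changes were 1.75 ± 0.11 (adjusted p = 0.00453), 1.59 ± 0.12 (adjusted p = 0.00575) and 1.63 ± 0.10 (adjusted p = 0.00456). FOSB rose by 1.77, while FOSL1, another AP-1 member, was lower by 1.15 and that call was not kept.

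The promoter of EGR1 carries CArG boxes, the motif bound by serum response factor, and they are shown because EGR1 is a well known target gene of that factor. The sequences are from RefSeq (GRCh38.p14), 5′ to 3′ on the plus strand, with the box in capitals.
EGR1, chr5:138465369-138465388: tcctgCCATATTAGGgcttc
EGR1, chr5:138465391-138465410: gcttcCCATATATGGccatg
The boxes begin 105 and 83 bases before the annotated start. A CArG box on either strand was present in 1.29% of all 35116 promoters in that table, which cover 250 bases before to 50 bases after a start. Among the 18 list members with a promoter there, EGR1 and EGR2 had one, and EGR2 was not called (log2 change 0.81).

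Ligands of the EGF receptor were among the genes that rose. EREG, the ligand epiregulin, was at the bottom in parental cells (0.22 and 0.18) and at 4.24, 4.10 and 3.89 in resistant libraries, and the call was kept. TGFA went from 2.12 and 2.09 to 4.29, 3.73 and 3.70, and EGFR, the receptor of both, from 4.91 and 4.74 to 6.16, 6.02 and 6.27. The groups did not overlap in any of the 3 genes, as in every called gene. EREG and TGFA remained below the library median in resistant cells. TGFA rose by 1.80 ± 0.27 and was kept, whereas EGFR rose by 1.33 and came to 0.69 after the adjustment, where it was not called. In all, 5 of 16 ERBB ligands and receptors were called higher, none lower, and 2 were kept. After the adjustment 2 members were called higher and 2 lower, and the median change of the list was 0.045 instead of 0.43. EPHB2, an ephrin receptor, rose by 2.66 from 5.25 and 4.81 to 7.72, 7.63 and 7.70, and FGFR3 by 1.41, both kept.

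IGF signalling changed in its ligand and binding proteins. IGF2, a growth factor that signals through IGF1R, was at 7.69 and 8.65 in parental and 11.33, 11.12 and 11.57 in resistant libraries, a change of 3.17 ± 0.32 (adjusted p = 0.00969). IGFBP2 went from 6.51 and 5.99 to 8.63, 8.63 and 8.48, and IGFBP4, which sequesters IGFs, from 10.48 and 10.51 to 7.87, 7.83 and 7.55. The parental libraries differed by almost 1 log2 unit for IGF2, but all resistant libraries lay above both. IGF2R, which clears IGF2 from the surface, rose by 2.11. IGFBP3 was called higher but stayed at or near the bottom of the table, with resistant values between 0.91 and 2.10. IGFBP6 fell by 2.00 and IGFBP5 by 1.48. IGF1R itself was not called (0.41, adjusted p = 0.084). Of 17 measured members 5 were called higher and 3 lower, and 4 and 3 of these calls were kept.

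WNT receptors moved in both directions. FZD7, a Frizzled receptor, was at 10.28 and 11.07 in parental and 13.36, 13.31 and 13.45 in resistant libraries, and rose by 2.70 ± 0.24 (adjusted p = 0.00797). FZD5 rose by 1.99, while FZD2 fell by 1.28 and the ligand WNT11 by 1.90 to values near the bottom of the table. These 4 calls were kept, as was that of ROR2. Of 36 WNT genes 6 were called higher and 4 lower. LGR5, a receptor for R-spondins, rose by 1.35 and was not called after the adjustment. Notch genes were called in 1 direction, 4 of 15 higher and none lower. NOTCH3 went from 4.80 and 4.95 to 6.57, 6.44 and 6.57, NOTCH2 from 3.86 and 4.87 to 6.12, 5.98 and 6.32, and the ligand JAG1 from 6.92 and 7.89 to 9.07, 9.02 and 9.18. NOTCH3 had closely matched parental libraries, whereas in NOTCH2 and JAG1 library 3 lay about 1 log2 unit above library 2. All 3 calls were kept.

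TGF-beta and BMP genes included 5 of 26 called higher and 3 lower. TGFBR2, the type II receptor, rose by 1.68 and INHBB, an activin subunit, by 1.92 from 2.23 and 2.26 to 3.86, 4.61 and 4.02. NOG, which binds BMPs, left the bottom of the table (0.22 and 0.18 in parental, 3.04, 3.42 and 1.89 in resistant libraries). FST, which binds activin, fell by 1.85 from 7.86 and 7.70 to 5.76, 6.07 and 5.95. TGFB1, a ligand of that receptor, was lower by 1.13, and that call was not kept.

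Aryl hydrocarbon receptor genes changed at the level of the receptor, of an enzyme that makes its ligand and of a target. TDO2 turns tryptophan into a precursor of kynurenine, which is a ligand of the receptor AHR, and CYP1A1 and TIPARP are classical AHR targets. TDO2 was at 2.12 and 2.73 in parental and 5.52, 5.45 and 5.44 in resistant libraries. AHR went from 5.12 and 6.09 to 7.87, 7.75 and 8.11, and CYP1A1 from 2.56 and 3.54 to 5.57, 5.58 and 5.79. Resistant libraries agreed within 0.4 in each gene and lay above both parental libraries, of which library 3 was the nearer. Changes were 3.04 ± 0.25 (adjusted p = 0.00673), 2.30 ± 0.32 (adjusted p = 0.0155) and 2.59 ± 0.34 (adjusted p = 0.0145), and the 3 calls were kept. TIPARP rose by 1.27 and was not called after the adjustment (0.82). KYNU, which breaks kynurenine down, fell by 1.22 from 6.81 and 6.68 to 5.44, 5.73 and 5.42 and was kept. Of 20 members 4 were called higher and 1 lower. The other measured targets in the list, AHRR, CYP1B1, NQO1, ALDH3A1 and SLC7A5, were not called.

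Immune genes that the study listed for OV-90 were mostly higher, with 18 of 24 called higher and none lower, 15 of them kept, and a median change of 1.91. The study chose this list on these samples, so the count is not independent evidence of its direction. GUCY1A1, a subunit of the nitric oxide receptor, rose by 2.74, CXCL5, a chemokine for neutrophils, by 2.04, and ACKR3, a scavenging chemokine receptor, by 1.43. IL11, a cytokine of the IL6 family, went from 2.75 and 3.56 to 5.51, 5.93 and 5.33 and ALDH1A2, which makes retinoic acid, from 4.27 and 4.66 to 6.08, 5.87 and 5.96. CDC20B, also on this list, left the bottom of the table. 6 listed genes were not called: TLR9 (1.44, at 0.22 and 4.60 in parental libraries), IL16 (-1.35), CCK (1.98), SOCS2 (0.31), L1CAM (1.72) and CD248 (2.57). TLR9 and CD248 differed between the parental libraries by 3 or more log2 units.

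Sensors of foreign nucleic acids and of lipopolysaccharide included several falls. TLR4, the receptor for lipopolysaccharide, was at 8.23 and 8.54 in parental and 5.98, 6.08 and 5.16 in resistant libraries. IFI16, a DNA sensor, went from 6.96 and 6.88 to 4.82, 4.86 and 4.75, and STING1, the adaptor through which DNA sensing induces interferon, from 6.90 and 6.82 to 5.59, 5.45 and 5.36. Parental libraries differed by 0.4 or less and every resistant library lay below them. MYD88, the adaptor of most Toll-like receptors, was called lower and came to lie at or near the bottom (3.73 and 3.91 in parental, 2.00, 1.80 and 1.82 in resistant libraries). Of 21 list members 5 were called lower and 3 higher. The 3 that rose were TRIM56 and TRIM9, ubiquitin ligases, and MAL (1.62), a membrane raft protein whose symbol resembles an alias of the Toll-like receptor adaptor TIRAP but which is a different gene. All changes named here were kept.

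Antigen presentation and chemokines were measured in their own lists. Of 15 MHC class I genes none was called higher and 2 lower, and the median change was -0.73, or -0.65 after the adjustment. The 2 were PSMB8, an immunoproteasome subunit that went from 6.51 and 5.61 to 4.41, 4.29 and 4.14, and TAP1, the peptide transporter, from 6.70 and 6.57 to 5.12, 5.004 and 5.28, and both were kept. Interferon-stimulated genes gave 1 call higher and 2 lower of 33, but without library 3 these counts were 2 and 9, and without library 2 they were 0 and 1. The MHC class I genes called lower were 5 without library 3 and 2 without library 2. In the cytokine and chemokine list 6 of 42 were higher and 6 lower. CXCR4, a chemokine receptor, rose by 2.89, at 4.58 and 5.51 in parental and 7.95, 7.84 and 8.02 in resistant libraries. Without library 2 the change was 2.43, called in the fit of the OV-90 libraries (adjusted p = 0.0066, limma) and not in that of all libraries (adjusted p = 0.0659). LIFR, which with IL6ST forms the LIF receptor, rose by 2.23, while CXCL6 fell by 2.65 and IL32 by 1.69. PDCD1LG2, the checkpoint ligand PD-L2, left the bottom of the table and NT5E, the ectoenzyme CD73 that makes adenosine, rose by 1.71. None of 9 leukocyte markers was called.

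**Figure D4:**
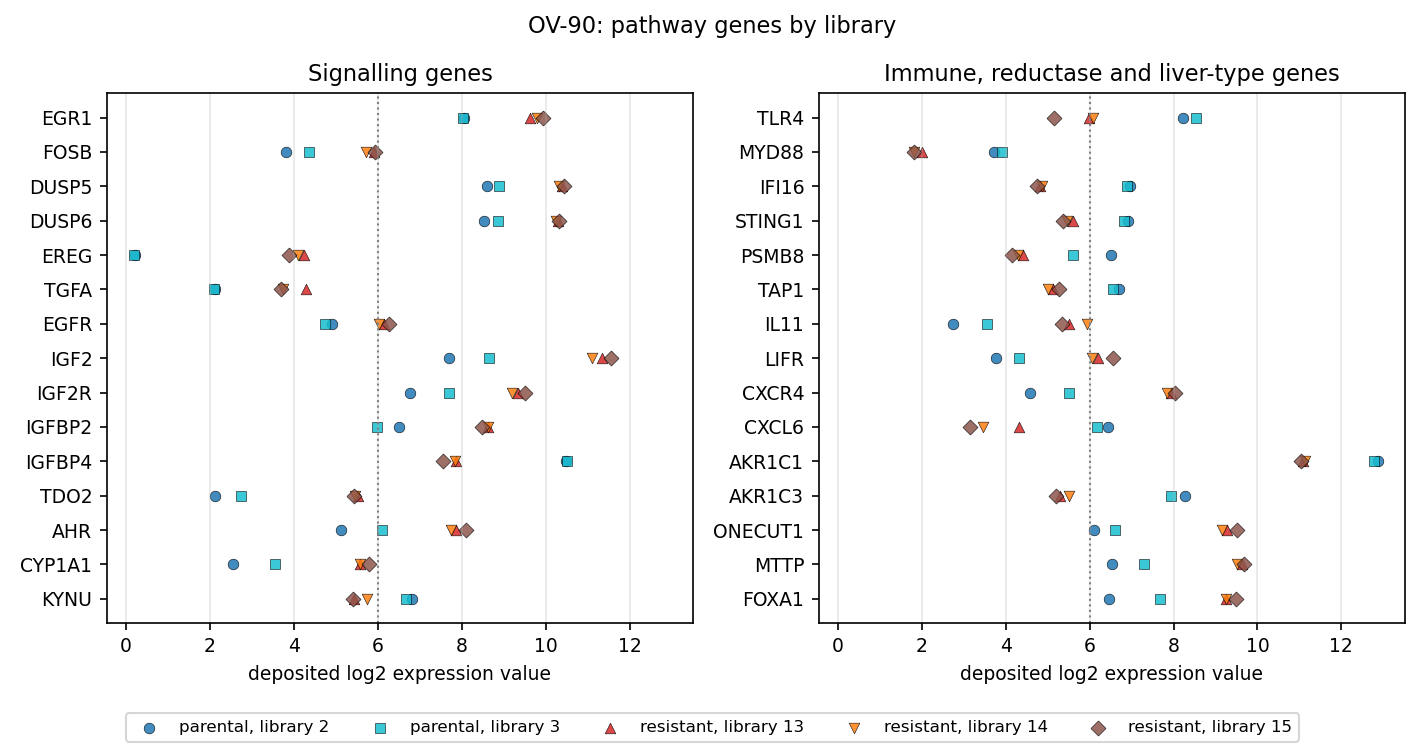
Deposited log2 expression values (horizontal axis) of 30 genes of the pathways described in the text in each OV-90 library, 1 point for each library, with the library median as a dotted line. All 30 genes were called, and the resistant libraries of every called gene lie on 1 side of both parental libraries. Parental library 3 is nearer to them than library 2 in many of these genes, for example in AHR, IGF2, FOXA1, MTTP, TDO2, CYP1A1 and CXCR4.

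Liver-type genes, which OV-90 expresses although it is an ovarian line, changed in their regulators and enzymes. Of 46 measured members 13 were called higher and 5 lower, 8 and 3 of which were kept, and the median change was 0.42. ONECUT1, a transcription factor of liver and pancreas development, was at 6.11 and 6.61 in parental and 9.28, 9.14 and 9.52 in resistant libraries. MTTP, which loads lipid onto apolipoprotein B, went from 6.53 and 7.30 to 9.64, 9.52 and 9.69, and FOXA1, a pioneer factor, from 6.47 and 7.67 to 9.25, 9.26 and 9.48. All resistant libraries were higher than both parental libraries, and the changes were 2.95 ± 0.19, 2.70 ± 0.24 and 2.26 ± 0.37 (adjusted p = 0.00477, 0.00796 and 0.0196). ALB, serum albumin, was at 8.10 and 8.11 in parental and 9.15, 9.09 and 9.09 in resistant libraries, a change of 1.004 ± 0.06 at the threshold of 2-fold, and was not kept. HNF4A, a central hepatocyte factor, did not reach a 2-fold change (0.82). On the other side, BHMT fell, as given above, and TTR, transthyretin, was lower by 2.48 with parental libraries at 5.90 and 7.48, which was not kept. The list thus held changes in both directions.

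Epithelial and mesenchymal genes each included calls in both directions. Of 34 epithelial genes 7 were called higher and 6 lower, and of 37 mesenchymal and matrix genes 6 higher and 2 lower. After the adjustment these counts were 2 and 6 for the epithelial and 2 and 8 for the mesenchymal list. Without library 2 in the fit of all libraries they were 3 and 5 for the epithelial and 11 and 1 for the mesenchymal list. CDH1, E-cadherin, was at 7.996 and 9.12 in parental and 9.17, 9.11 and 9.35 in resistant libraries and was not called, and VIM, vimentin, was low at 4.74 and 3.02 in parental and 4.34, 4.43 and 4.48 in resistant libraries. RAB25, an epithelial trafficking GTPase, fell by 3.37 from 8.39 and 7.56 to 4.50, 4.63 and 4.70, and EHF and ESRP2, epithelial regulators, fell by 1.33 and 1.15. DSP and DSG2, which build desmosomes, rose by 1.81 and 2.17. The 5 calls were kept. FN1, fibronectin, was at 11.96 and 13.50 in parental and 14.48, 14.29 and 14.75 in resistant libraries, with library 3 closer to the resistant values than to library 2, and its rise of 1.78 was not called after the adjustment. CDH11, a mesenchymal cadherin, rose by 2.16 and TWIST1, a mesenchymal transcription factor, fell by 2.02, both kept.

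Adhesion receptors and proteases were divided as well. ITGAV, the alpha subunit of receptors for fibronectin and vitronectin, rose by 2.23, with parental libraries at 4.83 and 6.15, while ITGB7 fell by 2.09, ITGB4 by 1.55 and ITGA3 by 1.17. MMP7, an epithelial metalloproteinase, went from -0.01 and 1.32 to 4.03, 4.36 and 3.94, from the bottom of the table to a low level. MMP9 fell by 2.67 and TIMP3, a metalloproteinase inhibitor, by 2.21. These 7 calls were kept, and MMP13 was lower by 2.12 with a call that was lost without library 2 in the fit of all libraries.

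Metabolic genes differed in how far they depended on transcript length. Of 40 glycolysis and hypoxia genes 8 were called higher and 1 lower, and 5 of the rises were kept. PFKFB3, which drives glycolysis through fructose bisphosphate, went from 3.87 and 4.45 to 6.36, 6.34 and 6.39, SLC2A3, a glucose transporter, from 6.23 and 6.90 to 8.49, 8.40 and 8.52, and EGLN3, a hypoxia-induced prolyl hydroxylase, from 7.88 and 7.72 to 9.43, 9.39 and 9.49. By contrast, of 37 complex I genes 5 were called lower, with a median change of -0.50, and of 58 cytosolic ribosomal protein genes 3 were lower, with a median of -0.51. After the adjustment these medians were -0.07 and -0.21, and without library 2 they were -0.32 and -0.36, with no call left in complex I. Of the ribosomal genes only RPS28, at 7.71 and 7.74 in parental and 5.76, 6.09 and 5.84 in resistant libraries, was kept. Cholesterol and fatty acid genes had 3 of 32 called higher and a median of 0.47, which came to 0 after the adjustment at 2 decimals, and SCD, the stearoyl-CoA desaturase, was kept (1.81).

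Of 23 NRF2 targets and aldo-keto reductases 4 were called higher and 4 lower, and 1 and 4 of these calls were kept. AKR1C1, AKR1C2 and AKR1C3 reduce steroids and aldehydes. AKR1C1 was at 12.88 and 12.79 in parental and 11.08, 11.13 and 11.04 in resistant libraries, and AKR1C3 at 8.27 and 7.95 in parental and 5.29, 5.50 and 5.21 in resistant libraries. They fell by 1.75 ± 0.06 and 2.78 ± 0.16 (adjusted p = 0.00287 and 0.00424), and AKR1C2 fell by 1.85. These genes are similar in sequence, so reads may have been divided between them and their separate values are uncertain. GCLC, the catalytic subunit for glutathione synthesis, rose by 1.44 and was kept, whereas TXNRD1 (1.39) and ME1 (1.23) were called higher and not kept. CHAC1, which degrades glutathione and is induced by ATF4, fell by 2.76 from 6.47 and 6.98 to 4.12, 3.73 and 4.05 and was kept.

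Genes of the p53 response and of cell survival included changes in both directions. Of 24 p53 targets 5 were called higher and 1 lower, 4 of the rises kept. MDM2, which degrades p53, went from 4.01 and 5.13 to 6.66, 6.54 and 6.71, TP53INP1 from 2.98 and 3.34 to 6.56, 6.11 and 6.50 and BTG2, an antiproliferative gene, from 6.85 and 7.81 to 9.53, 9.22 and 9.55, while CDKN1A, which encodes p21, did not reach a 2-fold change (0.48). The median of the list was 0.08. MCL1, a survival member of the BCL2 family, rose by 1.65 and BMF, a death member, by 1.40, and BIK, another death member, fell by 2.27, all kept. Of 10 ABC transporters ABCA1, a cholesterol exporter, rose by 1.74 and was kept, and ABCC1, a drug exporter, was called higher by 1.18 and was not kept.

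Genes usually restricted to neurons, to embryonic patterning or to the germ line were counted as well. Of 22 neuronal secretory genes 3 were called higher and 2 lower (22.7% against 16.1% of all genes). Besides SYT4, SYT11, another synaptotagmin, rose by 1.93, and besides STMN2, SCG5, a chaperone of prohormone convertase, went from 5.31 and 4.33 to 2.43, 3.12 and 2.74. These 4 calls were kept. Of 36 HOX genes 4 were called higher and 1 lower, of which HOXB8 (-1.22) and HOXD4 (1.19) were kept. Of 21 cancer-testis genes, which tumours may switch on again, 2 were called higher and 1 lower. Both shares (13.9% and 14.3%) are near that of all genes. MAGEC1 was at 4.96 and 4.60 in parental and 7.89, 7.54 and 7.93 in resistant libraries and SSX2 at 4.25 and 4.71 in parental and 6.98, 6.86 and 6.65 in resistant libraries, and both calls were kept, but both belong to families of similar genes between which the counting may have split reads.

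Neighbouring genes were examined in windows of 25 expressed genes along the chromosomes (positions in GRCh37). The window with the highest median lay at chr1:114447241-120354203, from DCLRE1B to REG4, with a median change of 0.86 and 10 genes called higher, among them HIPK1, a kinase, at 4.21 and 5.20 in parental and 7.01, 6.83 and 7.13 in resistant libraries. Next came chr11:6627524-13033666 with a median of 0.81, where IPO7, a nuclear import receptor, rose by 2.06, RASSF10 by 1.97 and EIF4G2, a translation factor, by 1.84, and chr12:76419227-92539622 with 0.78, which holds DUSP6 and TMTC2 (3.05). The lowest medians were -0.82 at chr22:18216904-20380440, -0.75 at chr19:54466191-55791749 and -0.72 at chr22:41843834-45258668. Of all 9556 overlapping windows 1% lay under -0.60 and 1% above 0.62. After the adjustment the 6 medians were 0.43, 0.66, 0.41, -0.51, -0.31 and -0.58, so that the chr11 window kept most of its median and that on chr19 the least. Against library 3 alone they lay between 0.53 and 0.66 and between -0.61 and -0.50. In windows of 50 genes the highest medians were 0.61 on chr11, 0.54 on chr8 and 0.54 on chr13, so that the chr1 and chr12 windows were not among the first 3, and the lowest were -0.66 on chr19 and -0.65 and -0.56 on chr22. In the same order these medians were 0.29, 0.20, 0.06, -0.23, -0.53 and -0.30 after the adjustment. Against library 3 alone they were 0.43, 0.39, 0.23, -0.37, -0.56 and -0.31. Changes of gene copy number were not measured here.

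Whether a change was larger or smaller in OV-90 than in the other lines was tested as the OV-90 change minus the mean of the changes in Kuramochi, OVSAHO and EFO-21, in a limma fit of all 23 libraries. 2560 genes (11.8%) had a higher and 2119 (9.78%) a lower change in OV-90, at an adjusted p under 0.05 and a difference of at least 1. Of the 1161 kept calls, 983 also differed from the other lines in the direction of the call. The OV-90 change by which these genes were called is itself part of the contrast. Much of this agreement is therefore built in and is no separate evidence that the changes are particular to OV-90. The contrast was made on values not adjusted for length and GC. The genes that follow are the 5 at each end among those with parental OV-90 libraries within 1 of each other and an OV-90 group mean above the median of all gene means. IGF2 rose by 3.17 in OV-90, while the change was -7.13 in Kuramochi, 1.28 in OVSAHO and 0.09 in EFO-21. KCND2, a potassium channel, changed by 2.43 in OV-90 against -4.87, -4.09 and 0.02 in the same order. TMPRSS15, enteropeptidase, changed by 2.83 against -3.47, -1.48 and 0.00, and CXCR4 by 2.89 against 0.24, -0.50 and -3.28. In KCND2, IGF2, TMPRSS15 and CXCR4 the gene was thus lower in at least 1 other resistant line and higher in OV-90. AMBN, which rose by 5.42 in OV-90, changed by 0.82, 1.07 and 0.89 in the others.

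The genes with a lower change in OV-90 included LINC01133, a long noncoding RNA, which went from 9.35 and 8.87 to 6.36, 6.48 and 6.50 in OV-90 and changed by 5.49 in Kuramochi and 4.03 in EFO-21. ACKR1 changed by 4.08 in Kuramochi and -2.74 in EFO-21. PTCHD1, a patched-related membrane protein, changed by -3.90 in OV-90 and by 1.71, 2.29 and 1.11 in the other lines, with resistant OV-90 library 14 at the bottom. HHIP changed by 1.14, 0.51 and 0.85 in the other lines and SULF2 by 1.37, 1.57 and -0.03. The differences were 5.41 for KCND2, 5.09 for IGF2, 4.49 for AMBN, 4.48 for TMPRSS15 and 4.07 for CXCR4, and -6.45 for ACKR1, -5.70 for HHIP, -5.65 for LINC01133, -5.60 for PTCHD1 and -5.50 for SULF2.

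**Figure D5:**
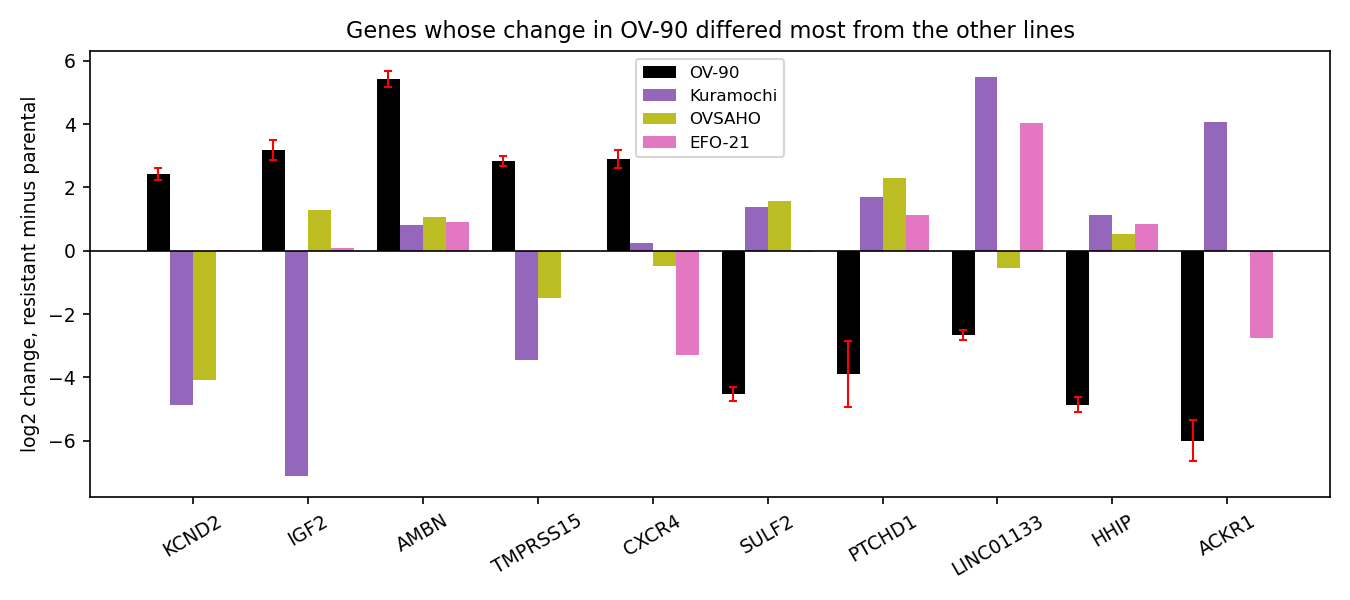
Log2 change (resistant minus parental, vertical axis) in OV-90 and in the other 3 lines for the 5 genes whose OV-90 change was highest and the 5 whose change was lowest relative to the others among genes with parental libraries within 1 of each other and a higher group mean above the median of all gene means, with red bars for the standard error of the OV-90 change from limma. IGF2 stands at 3.17 in OV-90 and -7.13 in Kuramochi, LINC01133 at -2.66 and 5.49.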

How the data were processed

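Deposited values for 21658 genes, of which 20745 have a symbol, are log2 expression values, quantile normalized by the authors across the 23 libraries after mapping to GRCh37 (hg19, submitters' processing notes). Read counts and depth are not in the table used here, so the number of libraries limits the precision, and p-values measure only the spread between libraries, which the study describes as replicate cultures of a line. Resistant and parental OV-90 libraries were compared with limma 3.58.1 (R 4.3.3) with a mean-variance trend, fitted on these 5 libraries over all genes, with Benjamini-Hochberg adjustment, and the contrast with the other lines on all 23. Alternatives were the fit of all libraries, other filters and thresholds, and leaving out each library. After the data were seen, an adjustment was added that subtracts from each library what natural splines (4 degrees of freedom) of transcript length and GC content predict. It covers 19596 genes (90.5%) with a transcript in the GENCODE annotation, 1 transcript for each gene. Positions in GRCh37 were found for 19367 genes, and promoters are from RefSeq. Named genes were the 10 largest rises and falls with both parental libraries within 1 of each other and the higher group mean above the median of all gene means, up to 3 called members in each direction and the central members of each list, the genes the study listed for OV-90, up to 4 called genes of each named window, and the 5 genes at each end of the contrast between lines by the same limits. The 10 largest rises and falls also needed all resistant libraries on the same side of both parental libraries. MYH2, KRT6A, IGHG1, EPCAM, other marker genes and the promoter match EGR2 were added after their values were seen. All members and lists were chosen with earlier results of these data known. Calculations and plots used Python 3.11.15. Some items are not reported here.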

Additional observations from a re-analysis of the deposited data

Results flagged for a closer look

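In the test of the OV-90 change minus the mean change of Kuramochi, OVSAHO and EFO-21 (limma, adjusted p under 0.05 and a difference of at least 1), 2560 genes had a higher and 2119 a lower change in OV-90. The genes named in the report that differed in this way are given with that difference on the log2 scale, and no explanation was examined.

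Of the largest rises, the difference was 4.49 for AMBN, 3.93 for SYT4, 2.75 for ITM2A, 3.80 for F2RL2, 3.25 for STXBP5L, 3.49 for ROR2, 1.47 for KCNA2, 3.34 for SLC4A4, 3.25 for TEK and 2.67 for FREM2. Several of these genes also rose elsewhere. KCNA2 was called higher in Kuramochi (1.33), OVSAHO (1.61) and EFO-21 (3.07), and ITM2A in Kuramochi (1.48) and EFO-21 (3.45). ROR2 was called higher in OVSAHO (1.10) and EFO-21 (1.94) and lower in Kuramochi (-2.64). SYT4 was called higher in Kuramochi (1.52) and F2RL2 in EFO-21 (1.28). Of the largest falls, it was -2.42 for CES1P2, -3.90 for BHMT, -6.45 for ACKR1, -5.24 for WSCD1, -3.83 for STMN2, -5.70 for HHIP, -5.50 for SULF2, -4.63 for TUSC3, -4.19 for SLC38A5 and -4.19 for LOC339166. For CES1P2, BHMT and STMN2 the difference was clearly smaller in size than the fall in OV-90. The mean change of the other lines was thus a fall in these genes as well, and their falls are not particular to OV-90.

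Among growth factor and MAPK genes it was 1.71 for FOSB, 1.82 for DUSP5, 2.04 for DUSP6, 4.58 for EREG, 2.85 for EPHB2 and -2.45 for FOSL1. Among IGF genes it was 5.09 for IGF2, 2.03 for IGF2R, 2.57 for IGFBP2, 2.90 for IGFBP3, -3.00 for IGFBP4 and -2.27 for IGFBP6. Among WNT, Notch and TGF-beta genes it was 2.70 for FZD5, 2.79 for FZD7, 2.26 for LGR5, -1.72 for FZD2, 1.70 for NOTCH2, 1.05 for NOTCH3, 1.63 for JAG1, 1.14 for TGFBR2, 3.41 for INHBB, -1.31 for FST and -1.81 for TGFB1.

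Among aryl hydrocarbon receptor genes it was 2.87 for TDO2, 2.46 for AHR, 1.45 for CYP1A1 and -1.70 for KYNU. Among immune genes that rose in OV-90 it was 5.18 for GUCY1A1, 1.05 for CXCL5, 1.85 for ACKR3, 1.87 for IL11, 1.67 for ALDH1A2, 2.36 for CDC20B, 4.07 for CXCR4, 2.16 for LIFR, 1.64 for TRIM56, 1.38 for TRIM9 and 3.31 for MAL, and among immune genes that were lower it was -3.45 for TLR4, -2.75 for IFI16, -1.90 for STING1, -2.29 for MYD88, -1.81 for PSMB8, -1.89 for TAP1, -2.17 for CXCL6 and -1.17 for IL32. IL16 was not called in OV-90 (log2 change -1.35) and had a difference of -2.36. SOCS2 was not called either (log2 change 0.31) and its change lay -2.64 from the mean of the others, so that its sign is set by the other lines.

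Among liver-type genes it was 2.38 for ONECUT1, 2.96 for MTTP, 1.26 for FOXA1, 1.06 for ALB and 1.26 for HNF4A. Among epithelial, matrix and adhesion genes it was 1.75 for CDH1, -3.10 for RAB25, 4.07 for DSP, 2.13 for DSG2, 2.17 for CDH11, -1.74 for TWIST1, 1.78 for ITGAV, -1.88 for ITGB7, -1.05 for ITGB4, -1.53 for ITGA3, 3.42 for MMP7, -1.98 for MMP9, -2.35 for MMP13 and -2.68 for TIMP3. Among endothelial markers it was -3.07 for PECAM1 and 1.43 for CLDN5.

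For genes of the cell cycle and of replication the difference was 1.06 for WEE1, -1.01 for CHEK1, -1.11 for MCM5, 1.09 for CCND1, 1.05 for CCNE2, 1.20 for E2F7, 1.18 for TOP2A, 1.20 for MKI67, 1.13 for CENPF and -1.08 for CENPA. Of these, CHEK1 and MCM5 were not called in OV-90. For metabolic and redox genes it was 2.19 for PFKFB3, 2.24 for SLC2A3, 1.44 for EGLN3, -1.26 for RPS28, 2.41 for SCD, -1.74 for AKR1C1, -1.23 for AKR1C2, -3.13 for AKR1C3, 1.45 for GCLC, 1.20 for TXNRD1, 1.49 for ME1 and -3.37 for CHAC1. For genes of p53, survival and transport it was 2.34 for MDM2, 3.92 for TP53INP1, 2.22 for BTG2, 1.5 for MCL1, 1.33 for BMF, -1.04 for BIK and 2.68 for ABCA1. For neuronal, HOX and cancer-testis genes it was 2.45 for SYT11, -2.30 for SCG5, 1.26 for HOXD4, 1.64 for MAGEC1 and 2.03 for SSX2, and for genes of the chromosome windows 2.14 for HIPK1, 2.00 for IPO7, 2.56 for RASSF10, 1.74 for EIF4G2 and 3.27 for TMTC2. The remaining genes, described for their contrast with the other lines, had differences of 5.41 for KCND2, 4.48 for TMPRSS15, -5.65 for LINC01133 and -5.60 for PTCHD1.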

How the results depend on the processing

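The count of 3478 changed genes kept to within 1.5 times in a fit of all 23 libraries, without a mean-variance trend, without weakly expressed genes, after recentring, with robustly summarized genes alone and after the adjustment for length and GC, between 2381 and 4246. It was 6195 at 1.5-fold, 7791 without a fold threshold and 2166 when a change of at least 2-fold from the nearer parental library was asked, an alternative that, like the adjustment, was chosen after seeing the data. The adjustment moved the share of higher calls from 59.2% to 47.4%. Leaving out 1 library at a time gave 309 to 5975 calls in the fit of the OV-90 libraries: 309, 425 and 356 without libraries 13, 14 and 15, 2397 without library 2 and 5975 without library 3. In the fit of all libraries, where a lone parental library is assumed to vary like the other groups, the count was 6144 without library 3, 2496 without library 2, and between 3841 and 4298 without a resistant library. Of 233 named genes, 172 kept their sign and their side of the threshold without library 2, and 217 did without library 3. Only 68, 79 and 77 did without libraries 13, 14 and 15, all in the fit of the OV-90 libraries. After the adjustment 170 of 231 did. Among genes called in neither fit, 5 changed sign without library 2, 2 without library 3 and 3 after the adjustment. No gene called in either fit changed sign under any of these alternatives. The contrast with the other lines gave 10905 genes without a threshold on the difference, against 4679, and stayed between 3194 and 6268 otherwise. The causes were not tested. No paired analysis was possible because the columns carry library numbers and no replicate numbers.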
